A study of Mus musculus with 3 samples.

Results

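Histone genes were followed in mouse airspace cells after breathing ozone. The set holds every gene in the deposited tables whose symbol begins with H1f, H2ac, H2bc, H3c, H4c, H2az, H3f or Macroh2a, or is H2ax. A gene counted as a member if it had at least 30 unique molecular identifiers (UMIs, the tags that mark single captured transcripts) over the 3 libraries, in barcodes of at least 500 UMIs, at least 300 genes and at most 10% mitochondrial UMIs. Of 82 matching symbols, 67 passed, 10 had 1 to 29 UMIs and 5 had none. The 67 are 57 clustered, replication-dependent genes (5 of H1, 15 of H2A, 14 of H2B, 11 of H3 and 12 of H4) and 10 variant genes. H3f3aos, an antisense transcript that codes for no histone, is counted among the variants by the symbol rule. Just inside the limit lay H2ac12 with 30, H4c6 with 35 and Macroh2a2 with 36 UMIs, and just outside it H2bc12 with 27, H4c2 with 22 and H2bc13 with 18.

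Wild-type C57BL/6J mice aged 12 weeks were placed for 3 h in filtered air, in ozone at 1 ppm or in ozone at 1.5 ppm, and their right lungs were lavaged 22 to 24 h afterwards. Lavage cells of 3 to 4 mice a group were pooled into 1 library, prepared with the 10x Genomics 3′ kit. All 3 groups are of 1 strain and differ by label only in the gas. With 1 pool a group there is no replicate, so no test between groups was possible. All intervals below are 95% intervals of counting error alone.

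Nucleosomes wrap DNA around an octamer of H2A, H2B, H3 and H4, and H1 closes the linker between them. The clustered genes supply these proteins during DNA replication. Their mature messenger RNAs end in a stem-loop in place of a poly(A) tail, and stem-loop binding protein carries them through cleavage, export and translation. Most variant genes lie outside the clusters, have introns and poly(A) tails, and are made through the whole cell cycle, while H2ax and H1f0 have no intron and H2ax can also end in a stem-loop. Some clustered genes are known to make polyadenylated transcripts as well, above all in differentiated cells. The kit used here primes on poly(A), so what it counts of a clustered gene need not follow its mature, tail-less message. Alveolar macrophages, the resident phagocytes of the airspace, are one of the tissue macrophage types that renew themselves by division.

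The stem-loop is shown first, because the levels in cycling cells are set beside it further on. The following stretches are from GENCODE vM21 transcripts (build GRCm38), with the 16 bases that begin at the match in capitals and up to 5 bases on each side:
H2ac24: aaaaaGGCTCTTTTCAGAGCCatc
H3c3: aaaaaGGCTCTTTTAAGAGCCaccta
H4c8: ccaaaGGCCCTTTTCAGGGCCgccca
H1f4: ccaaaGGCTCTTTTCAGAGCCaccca
H1f2: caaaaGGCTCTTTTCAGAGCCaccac
H2bc6: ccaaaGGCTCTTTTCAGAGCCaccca
H2ac25: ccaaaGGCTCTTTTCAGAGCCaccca
H2ax: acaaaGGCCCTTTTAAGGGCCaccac
The pattern searched was the first 15 of the capitals of H2ac24, with any base at the tenth and up to 2 changes, on the transcript strand. It was found in 40 of the 57 clustered members, in 30 of them without a change. Every H4 match had 2 changes, as in H4c8. The pattern was present without a change in 0.0317% of 141767 annotated mouse transcripts, and with up to 2 changes in 0.85%. Of the variant members, H2ax held it with 2 changes, and H3f3b had a 2-change match beginning at base 63 of its transcript, far from the 3′ end. Annotated transcripts differed in what follows: H2ac24 ended 3 bases after the 16 shown, H4c8 46 and H3c3 74 bases after them, while H1f2 went on for 840, H1f4 for 1153, H2ac25 for 1643 and H2bc6 for 1861 bases. No match was found for H1f5 or H2bc4, whose annotated transcripts were 743 and 1156 bases long. Some annotated transcripts, such as that of H2ac10 at 399 bases, may hold little more than the coding sequence, so a missing match says only that these letters are not in the annotated transcript.

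Promoters of 3 H1 genes are shown because the levels of H1f5 and H1f4 differed from those of H1f2 in the comparisons below. They are RefSeq sequences of build GRCm38.p6, the 150 bases before the annotated start on the gene's strand, with matches to the searched motifs in capitals.
H1f5 (chr13:21780626-21780775, minus strand): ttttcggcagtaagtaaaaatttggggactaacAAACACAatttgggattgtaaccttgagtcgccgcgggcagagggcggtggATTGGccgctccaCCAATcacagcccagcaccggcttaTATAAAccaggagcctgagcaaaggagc
H1f4 (chr13:23622559-23622708, minus strand): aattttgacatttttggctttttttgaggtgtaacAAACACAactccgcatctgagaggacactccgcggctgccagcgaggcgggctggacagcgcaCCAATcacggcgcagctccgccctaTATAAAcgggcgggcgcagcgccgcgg
H1f2 (chr13:23738657-23738806, plus strand): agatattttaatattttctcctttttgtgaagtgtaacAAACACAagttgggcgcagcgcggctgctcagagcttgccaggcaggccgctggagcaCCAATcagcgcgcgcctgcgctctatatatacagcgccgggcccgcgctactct
The motifs were CCAAT as the box of that name, TATAAA as the TATA box, the octamer ATTTGCAT and the H1 box AAACACA, each searched on both strands. They did not overlap in these stretches. Matched by symbol, 56 of the 67 members had a promoter of 300 bases in the table, 48 clustered and 8 variant, and of the 48 clustered ones 41 lie on chromosome 13 and 7 on chromosome 3. CCAAT was present in 85.4% of the clustered promoters and in 37.9% of all 27025 promoters of that length. By family it was in 100% of the clustered H1, H2A, H2B and H3 promoters but in only 3 of 10 H4 promoters. TATAAA was present in 62.5% against 14.2%, and the octamer in 18.8% against 1.75%. The clustered promoters with the octamer were all of H2A (5 of 14) or H2B (4 of 10). The H1 box was present in 4 of 5 clustered H1 promoters and in 7.14% of all promoters. H1f5, H1f4 and H1f2 share CCAAT and the H1 box in the stretch shown, and H1f2 has no exact TATAAA there. It does hold the letters tatatata, which were not searched, so a missing TATAAA does not mean a missing TATA box. The bases after the RefSeq start were found near the start of a GENCODE transcript for H1f5 and H1f4 but not for H1f2, so the place of the H1f2 stretch is less certain. A match describes letters in this window, not a bound site.

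Cells were taken from clusters named by alveolar macrophage markers. The clusters were built without histone genes, without the phase lists used below and without mitochondrial, ribosomal and sex-linked genes. Alveolar-macrophage-like cells numbered 3308 in air, 2127 at 1 ppm and 5680 at 1.5 ppm, which was 95.1%, 94.9% and 86.4% of kept cells. All 12 macrophage markers were detected in every library. Median UMIs of these cells were 13862, 16000 and 13048. Their median mitochondrial share was 4.12%, 3.97% and 2.31%, and the 10% limit removed 34.2%, 30.6% and 9.07% of barcodes. The 8 airway epithelial markers summed to 88.6, 72.2 and 135 CPM (UMIs per 1000000 UMIs of the same cells) within the class, with 8, 7 and 8 of them detected (Tmem212 at 0 at 1 ppm). The class's largest cluster was cluster 2 (led by Dnah11) in air and cluster 0 (led by Osm and Il1b) at 1.5 ppm, and at 1 ppm cluster 1. Libraries shared 2, 7 and 1 kept barcodes between pairs. The part of the mitochondrial share and of the epithelial RNA in the results was not tested, beyond the alternatives given where they apply.

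Clustered histone RNA stood far higher after 1.5 ppm ozone than after air, and hardly differed at 1 ppm. Summed over the 57 genes, it was 278 CPM in air, 286 at 1 ppm and 724 at 1.5 ppm of all UMIs in alveolar-macrophage-like cells. The 1.5 ppm library was 2.61-fold above air (2.56 to 2.66), and the 1 ppm library 1.03-fold (1.01 to 1.06). The 10 variants, far more abundant in sum, were at 2450, 2798 and 4369 CPM, 1.78-fold (1.77 to 1.80) and 1.14-fold (1.13 to 1.15) above air. Among the 45 clustered members with at least 100 UMIs over the libraries, 30 were 2-fold or more higher at 1.5 ppm, where 3.47% of all 12868 genes tested were, and 0 were 2-fold lower, where 0.839% of all genes were. Most of the 45 did not reach 100 UMIs in air alone, and many needed the 1.5 ppm library, where they are high. In air alone 14 had 100 UMIs, and 7 of these were 2-fold or more higher. The median log2 ratio of all 45 was 1.88, against -0.04 for all genes tested, and carries the same limit. Of 7 variants tested, 1 passed 2-fold, H2az1. At 1 ppm 0 clustered members were 2-fold higher (0.427% of all genes) and 1, H4c1, was 2-fold lower (0.723% of all genes), on 3 against 10 UMIs. The median was then 0.20, against -0.05. Restricted to cells of 2.5 to 4% mitochondrial UMIs, the 1.5 ppm sum was 2.22-fold above air, and 16 members were 2-fold or more higher. The minimum of 100 UMIs was applied again within those cells and the share of all genes was not taken. The 16 and the 30 thus cannot be compared directly. In bulk sums of this kind more cells of a state and more RNA per cell cannot be told apart.

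The clustered linker histone genes summed to 81.7 CPM in air, 103 at 1 ppm and 288 at 1.5 ppm, 3.53-fold above air at the higher dose. H1f5, which codes for the linker protein H1.5, was at 26.9 CPM in air, 36.4 at 1 ppm and 160.5 at 1.5 ppm, 5.96-fold (5.64 to 6.31) above air. Its share of all clustered UMIs went from 9.69% in air to 22.2% at 1.5 ppm. H1f4, for H1.4, was at 13.6, 17.4 and 70.0 CPM, and H1f3, for H1.3, at 5.40, 6.51 and 13.0. Both were highest at 1.5 ppm, 5.15-fold and 2.41-fold above air. H1f2, for H1.2, did not follow them: it was at 34.9, 42.2 and 40.6 CPM, with 1 ppm the highest and the ratio at 1.5 ppm 1.16 (1.10 to 1.23). H1f1, with fewer UMIs, was the other clustered H1 member and was also 2-fold or more higher at 1.5 ppm.

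The clustered H2A genes had the highest ratio of the 5 families, with sums of 42.0, 48.2 and 178.5 CPM, 4.25-fold (4.06 to 4.45) above air at 1.5 ppm. H2ac24 was at 13.0, 20.1 and 89.0 CPM, a ratio of 6.82 (6.30 to 7.41) at 1.5 ppm and of 1.54 (1.38 to 1.71) at 1 ppm. H2ac8 was at 8.10, 7.34 and 40.1 CPM, and H2ac20 at 2.38, 2.44 and 11.8. In both, the interval of the 1 ppm ratio included 1, and 1.5 ppm was 4.95-fold above air. H2ac25 did not share this and was lowest at 1.5 ppm, at 11.4, 11.9 and 9.59 CPM, 0.844 of air (0.758 to 0.940). Of the 12 H2A members tested, 9 were 2-fold or more higher at 1.5 ppm (3.47% of all genes). Those under 2-fold were H2ac25, H2ac15 and H2ac6. Only H2ac24, H2ac8, H2ac20 and H2ac25 had 100 UMIs in air alone, so the count of 9 supports nothing.

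The summed H2B genes had the lowest ratio of the 5 families, and a single gene held most of their UMIs. H2bc4 alone held 32.9% of all clustered UMIs in air. It was at 91.5, 73.0 and 115 CPM, lowest at 1 ppm and 1.26-fold (1.22 to 1.30) above air at 1.5 ppm. H2bc6 was at 25.5, 23.1 and 31.4 CPM. The summed H2B level was 122, 101 and 162 CPM, so that 1 ppm lay below air at 0.83 (0.797 to 0.865). Of the 10 H2B members tested, 7 were 2-fold or more higher at 1.5 ppm (3.47% of all genes). Those that were not are H2bc4, H2bc6 and H2bc21. Only H2bc4 and H2bc6 had 100 UMIs in air alone. The 7 thus entered only with the other libraries, and their count supports nothing.

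H3 and H4 genes were scarcer in these poly(A)-primed libraries. H3c3 was at 1.61, 1.66 and 10.4 CPM, 6.46-fold (5.13 to 8.22) above air at 1.5 ppm. H4c4 was at 7.62, 8.38 and 32.7 CPM and H4c8 at 1.83, 2.25 and 12.3, ratios of 4.30 and 6.72. These 3 genes shared a pattern of like levels in air and 1 ppm and a several-fold higher level at 1.5 ppm. H4c9 did not, at 5.24, 6.10 and 7.13 CPM (1.36-fold, 1.18 to 1.58). Of the tested members, 4 of 9 in H3 and 6 of 9 in H4 were 2-fold or more higher (3.47% of all genes). Only H3c14, H3c15, H4c4 and H4c9 had 100 UMIs in air alone, and of these only H4c4 was 2-fold higher. Members of these families code for near-identical proteins, and reads may be shared between close copies, so values of single genes are less certain than the sums. The 43 clustered members under 1000 UMIs lay between 0.279 and 9.44 CPM at 1.5 ppm, and 41 of them were higher there than in air. The median log2 ratio of all genes tested was -0.04. Many of the 43 reached 30 UMIs only with the 1.5 ppm library, where they are high, so the 41 support nothing. Of the 43, 12 had under 100 UMIs and are poorly measured.

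Among variants, the H2A.Z and H3.3 genes were higher at 1.5 ppm, and macroH2A was near level. H2az1, which codes for H2A.Z, a variant placed beside promoters, was at 718, 803 and 1579 CPM, 2.20-fold (2.17 to 2.23) above air. Its second gene, H2az2, was at 87.0, 79.9 and 163 CPM. H3f3a and H3f3b, both for the replacement histone H3.3, were at 747, 847 and 1289 CPM and at 692, 847 and 1108 CPM, ratios of 1.73 and 1.60. In both H3.3 genes the 3 libraries stood in the order of dose. H2ax, whose protein is phosphorylated at DNA breaks, was at 37.5, 36.7 and 54.2 CPM. Macroh2a1, a large variant linked with silent chromatin, was at 152, 153 and 159 CPM, a ratio of 1.05 (1.02 to 1.08). H1f0, the linker histone of resting and differentiated cells, was at 16.9, 29.9 and 15.8 CPM. It was the named member with its highest level at 1 ppm by a wide margin, 1.76-fold (1.61 to 1.93) above air, and it was at 0.935 of air (0.858 to 1.02) at 1.5 ppm.

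**Figure D1:**
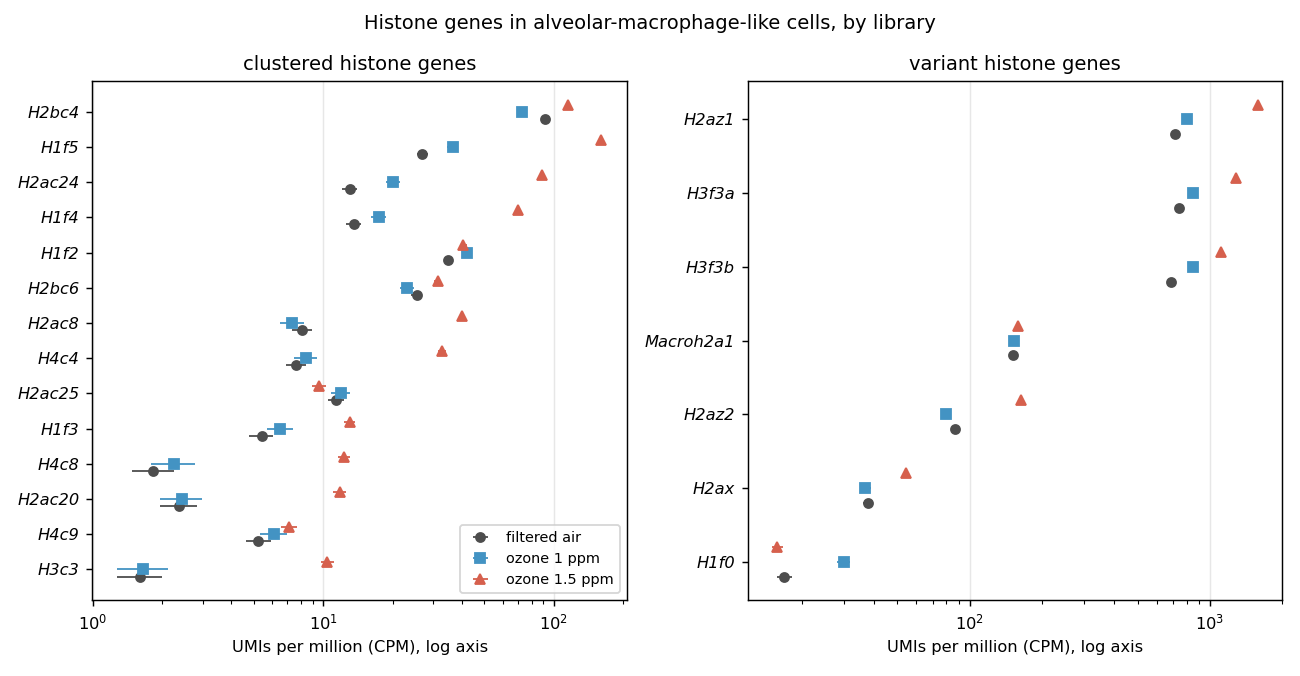
CPM of the 21 members with at least 1000 UMIs in alveolar-macrophage-like cells (log axes), one marker per library, bars giving 95% counting intervals. H1f5, H2ac24, H1f4, H2ac8 and H4c4 have their 1.5 ppm marker far to the right of both others, while H2bc4, H1f2, H2bc6, H2ac25 and Macroh2a1 have all 3 close together, and H1f0 is highest at 1 ppm.

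Each cell was then given a phase from genes that are no members. Cells of at least 5000 UMIs were thinned to 5000 and scored by 30 S phase genes and 31 genes of G2 and M phase. Cycling cells had 3 or more UMIs of the G2 and M list, non-cycling cells at most 1 UMI of each list, S cells 3 or more S phase UMIs with fewer than 3 of the other list, and the rest were intermediate. These are ranges of a score, not types: 141, 69 and 241 cells sat at exactly 3 G2 and M UMIs, and 395, 235 and 647 at 2. Macrophage-like cells under 5000 UMIs, 60, 32 and 343 in number, were left out. Cycling cells made up 13.5%, 10.9% and 26.5% of the cells scored, and non-cycling cells 40.5%, 45.6% and 30.4%. S cells, which are not counted as cycling here, made up 22.9%, 20.3% and 23.1%. Their clustered sum was 191, 181 and 271 CPM. Median UMIs before thinning were higher in cycling cells (17615, 21156 and 19851) than in non-cycling ones (13226, 15485 and 11900).

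The clustered genes split between those found almost wholly in cycling cells and those that were not. In air, cycling cells held 17.0% of all UMIs but 96.3% of H1f5, 91.8% of H2ac24 and 83.5% of H2ac8 UMIs. H1f5 was at 1.08 CPM in non-cycling and 153 in cycling cells of air, and at 3.77 and 439 CPM at 1.5 ppm. The ratio of cycling to non-cycling was 142 in air, 141 at 1 ppm and 116 at 1.5 ppm. H2ac24 had ratios of 59.5, 50.9 and 35.1 in the same order, and H1f4 of 7.52, 5.34 and 7.55. H3c3 had 79 UMIs in cycling and 0 in non-cycling cells of air, at least 58.1-fold higher with 3 counts in the non-cycling cells as the limit. At 1.5 ppm it had 915 against 3 UMIs (ratio 206, 70.3 to 1000).

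A second group of clustered genes was lower in cycling cells, or level. H2bc4 was at 107, 80.3 and 170 CPM in non-cycling cells and at 46.0, 43.0 and 54.2 in cycling cells, ratios of 0.431, 0.535 and 0.319. H2ac25 had ratios of 0.427, 0.308 and 0.339. H1f2 lay near 1, at 0.926, 0.809 and 0.770, as did H2bc6, at 0.998, 1.21 and 1.14, and H4c9, at 1.29, 1.29 and 1.13. The summed H2B genes were therefore lower in cycling cells in every library (0.627, 0.807 and 0.600), while the summed H2A genes were 7.84-fold, 9.08-fold and 12.6-fold higher, and H1, H3 and H4 lay between. In the air library 7 of 13 clustered members tested were 2-fold or more higher in cycling cells (6.23% of all genes) and 3 were 2-fold or more lower (0.374% of all genes). At 1.5 ppm 25 of 33 were higher (6.59% of all genes) and 4, H2bc4, H2ac25, H3c14 and H3c15, were lower (0.508% of all genes). At 1 ppm the counts were 6 of 11 (5.83% of all genes) and 1 (0.43% of all genes). Most of these members reached 100 UMIs only with the cycling cells, so the counts describe and support nothing: with 100 UMIs in non-cycling cells alone, 1 of 5 in air, 1 of 5 at 1 ppm and 4 of 9 at 1.5 ppm were 2-fold or more higher.

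Variants spanned a narrower range. H2az2 was 6.67-fold, 6.11-fold and 5.36-fold higher in cycling cells, H2ax 3.92-fold, 4.01-fold and 3.68-fold, and H2az1 3.14-fold, 3.40-fold and 2.84-fold. Macroh2a1 had ratios of 1.71, 1.70 and 1.71. The H3.3 genes were nearly level, at 1.30, 1.31 and 1.28 for H3f3a and 1.27, 1.27 and 1.12 for H3f3b. Of the variants, the H2A.Z genes and H2ax thus differed most between phases and the H3.3 genes least, apart from H1f0, at 1.27, 0.825 and 0.823.

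**Figure D2:**
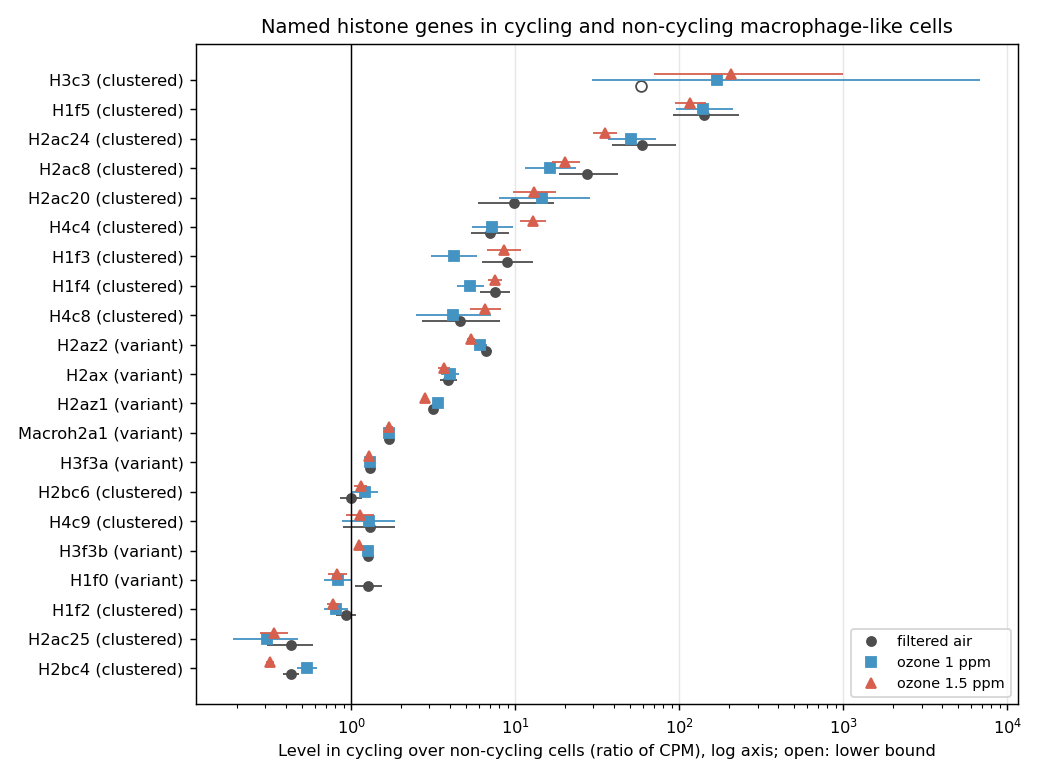
Level in cycling over non-cycling alveolar-macrophage-like cells for the 21 named members (log axis), one marker per library with 95% counting intervals; the open marker is a lower bound where non-cycling cells had 0 UMIs. H3c3, H1f5 and H2ac24 lie above 30-fold in every library with a ratio, and H2bc4 and H2ac25 are the lowest, below 1 in all 3 libraries.

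The ratios are set here beside how far the annotated transcript goes on past the stem-loop, at 1.5 ppm and with 1 UMI added to each sum. Of the 33 clustered members with at least 100 UMIs in cycling and non-cycling cells together, 11 have a transcript that ends 100 bases or fewer after the stem-loop, with ratios from 3.50 to 155 (median 19.9). Another 16 run on for more than 100 bases, from 0.263 to 20.0 (median 3.56), and 6 have no stem-loop in the annotated transcript, from 0.319 to 115 (median 22.6). The groups overlapped. Of the 11, 10 had under 100 UMIs in non-cycling cells and entered only through the cycling cells, where they are high, so these values support no relation.

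Among the 9 members with 100 UMIs in non-cycling cells, H2ac24 ends soon after the stem-loop and had a ratio of 34.8. H2bc4, with no match, had 0.319. The other 7 run on past the stem-loop and differed widely: H2ac8 was at 20.0, H4c4 at 12.7 and H1f4 at 7.53, and H2bc6, H4c9, H1f2 and H2ac25 at 1.14, 1.13, 0.770 and 0.340. AATAAA, the commonest poly(A) signal, was in the last 50 bases of a transcript of 6 of the 33, against 26.6% of all annotated transcripts. The 6 were H2ac25 (0.340), H3c14 (0.433), H1f2 (0.770), H2bc6 (1.14), H2ac8 (20.0) and H4c1 (24.5), and so lay both below and far above 1. The annotation is of an earlier build than the counts, the split at 100 bases was chosen after the values were seen, and the relation was not tested.

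**Figure D3:**
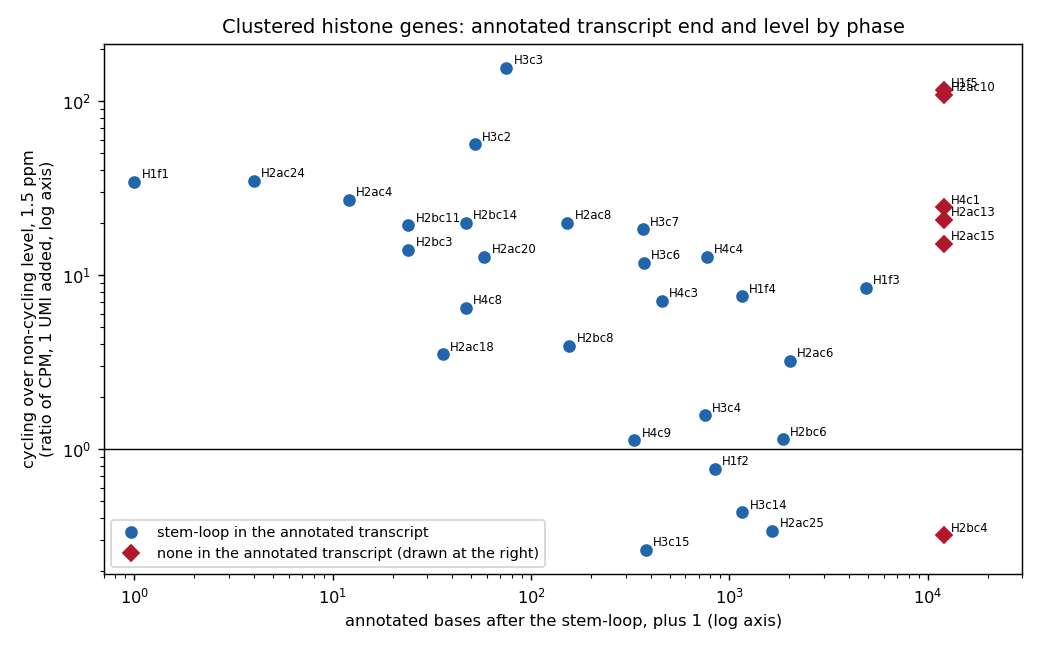
Ratio of cycling to non-cycling level at 1.5 ppm against the number of annotated bases after the stem-loop, for the 33 clustered members with at least 100 UMIs in these cells (log axes, 1 added to each number of bases). The 11 points left of 100 bases lie at 3.50 or above, 10 of them with under 100 UMIs in non-cycling cells, and the points below 1 with a stem-loop, H1f2, H3c14, H2ac25 and H3c15, all lie right of it; members without a match are drawn at the right edge.

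High clustered histone RNA was not spread over all cells with phase genes. Cells with 8 or more S phase UMIs and 6 or more G2 and M UMIs held 1063, 1192 and 2072 CPM of clustered genes. Cells with as many S phase UMIs but 0 to 2 G2 and M UMIs held only 143, 105 and 206 CPM, less than non-cycling cells of the same library (227, 218 and 354). Cells with 6 or more G2 and M UMIs but 0 to 3 S phase UMIs held 164, 304 and 510 CPM. The cells high for both lists stood furthest apart. For the variants the gap between the last groups was smaller, with 5365, 5714 and 6735 CPM in the cells high for both and 4242, 5117 and 5658 in those high for G2 and M alone.

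Clusters, which used no phase score, differed in the same way. Cluster 5, led by H1f5 itself although histone genes took no part in the clustering, held 1072, 1354 and 2309 CPM of clustered histone RNA. Cluster 9, led by Ung, Dtl and Cdc6, genes of replication start and repair, held 119.8, 188 and 678 CPM. Cluster 13, led by Ccnb2 and Cdc20, genes of mitosis, held 182, 217 and 357 CPM. In air cluster 9 was the lowest of the 12 macrophage-like clusters, though 57.7% of its scored cells were cycling. At 1.5 ppm the clustered sum was above air in 12 of 12 macrophage-like clusters, from 1.39-fold to 5.65-fold (median 1.60), the highest in cluster 9. In that cluster the G2 and M list was also higher, at 866 CPM in air and 1748 at 1.5 ppm (2.02-fold), and the cycling share went from 57.7% to 72.9%. The part of this in the ratio was not tested. At 1 ppm it was above air in 6 of 12, from 0.909 to 1.57.

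**Figure D4:**
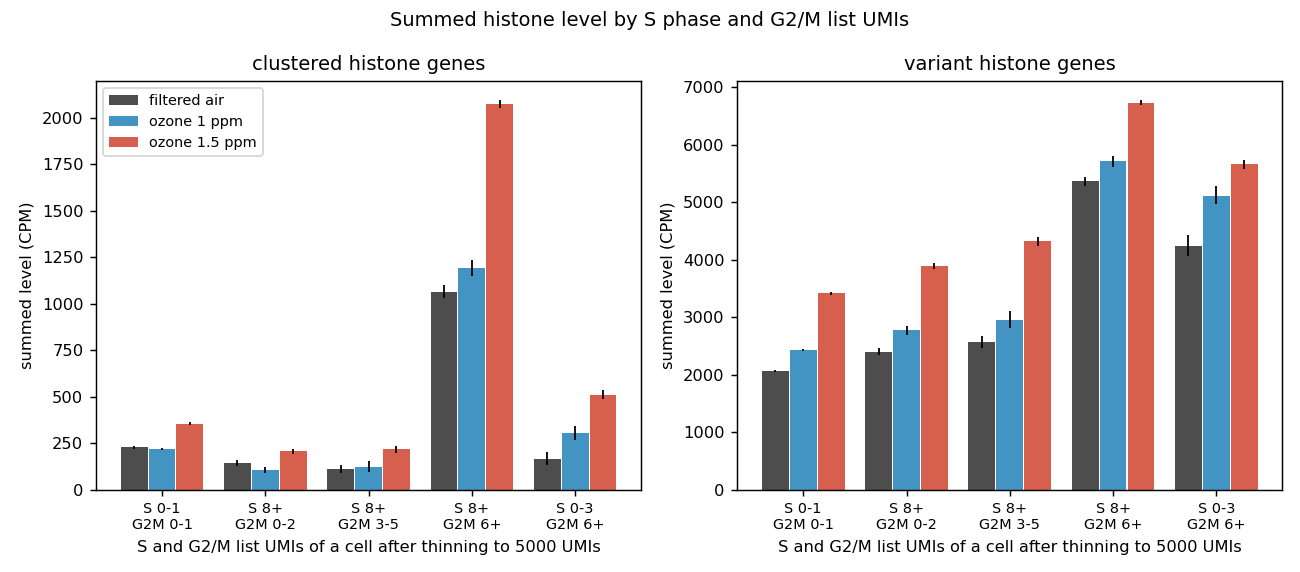
Summed CPM of clustered (left) and variant (right) members in cells grouped by S and G2 and M list UMIs after thinning to 5000 UMIs, bars by library with 95% counting intervals. Clustered RNA is highest in the group with 8 or more S and 6 or more G2 and M UMIs, at 1063, 1192 and 2072 CPM, while variants are high in both groups with 6 or more G2 and M UMIs.

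The ozone comparison was repeated within phases, because the share of cycling cells differed between libraries. In cycling cells the clustered sum was 575 CPM in air, 733 at 1 ppm and 1447 at 1.5 ppm. The 1.5 ppm level was 2.52-fold above air (2.44 to 2.59) and the 1 ppm level 1.28-fold (1.22 to 1.33). In the same cells the S phase list was 1.02-fold and the G2 and M list 1.07-fold above air at 1.5 ppm, so the summed lists that set the phase were nearly level. The cycling cells were not alike cell by cell, however: their median number of G2 and M UMIs was 5, 8 and 17 after thinning, and the part of this in the ratio was not tested beyond the groups by UMIs above, where the ratio was 1.95 (1.89 to 2.02) in cells high for both lists and 3.12 (2.503 to 3.93) in those high for G2 and M alone. In non-cycling cells the clustered sum was 227, 218 and 354 CPM, 1.56-fold above air at 1.5 ppm (1.50 to 1.62) and 0.958 at 1 ppm (0.916 to 1.00). Among cycling cells 22 of 33 clustered members were 2-fold or more higher at 1.5 ppm (1.53% of all genes), and in non-cycling cells 6 of 16 (2% of all genes), H1f5, H2ac24, H1f4, H2ac8, H4c8 and H2ac18. With 100 UMIs in air alone, the counts were 5 of 9 and 1 of 5. The levels behind some of the 6 are near those of other cell types, given at the end. At 1 ppm the count was 1 of 33 in cycling cells, H2bc3 on 12 against 8 UMIs (0.757% of all genes), and 0 of 16 in non-cycling cells (0.209% of all genes).

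Within cycling cells several of the abundant clustered genes were again highest at 1.5 ppm. H1f5 was at 153, 239 and 439 CPM, 2.88-fold (2.72 to 3.05) above air at 1.5 ppm and 1.56-fold (1.45 to 1.69) at 1 ppm. H2ac24 was at 70.5, 122 and 236 CPM, with ratios of 3.34 and 1.73. For these genes the 1 ppm library lay between the others. H1f4 was at 47.8, 59.4 and 159.7 CPM and H4c8 at 5.47, 7.10 and 27.7, a ratio of 5.07 (3.77 to 6.98). H4c4, at 27.5, 31.5 and 79.4 CPM, was 2.89-fold above air in cycling cells but 1.58-fold (1.18 to 2.13) in non-cycling cells. H1f3 was at 20.1, 18.6 and 29.8 CPM (169, 102 and 959 UMIs) and H1f2 at 33.5, 35.5 and 37.5 (282, 195 and 1207 UMIs). In both the order of the libraries differed from that in all cells, but the differences behind the change were small and were not tested. H2bc4 was 1.59-fold (1.51 to 1.68) above air in non-cycling and 1.18-fold (1.06 to 1.32) in cycling cells, but 2.00-fold (1.53 to 2.67) in cells high for both lists and 1.78-fold (1.15 to 2.88) in those high for G2 and M alone. In cells of 8 or more S phase UMIs with 3 to 5 G2 and M UMIs, H2bc4 was 1.23-fold (0.848 to 1.83) above air. That interval also held the non-cycling ratio of 1.59. With as many S phase UMIs but fewer than 3 G2 and M UMIs, H2bc4 was 1.25-fold (1.04 to 1.50) above air. A ratio below that of non-cycling cells was thus seen in some groups by UMIs of both lists and not in others. These differences between phases were not tested.

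The variants' ratios depended on how finely the cells were grouped by phase. At 1.5 ppm the variant sum was 1.65-fold above air in non-cycling and 1.53-fold in cycling cells, H3f3a 1.67-fold and 1.65-fold, H3f3b 1.66-fold and 1.46-fold, and H2az1 1.86-fold and 1.68-fold. H2az2 was 1.46-fold (1.34 to 1.60) above air in non-cycling and 1.17-fold (1.12 to 1.23) in cycling cells. H2ax was at 25.2, 26.3 and 28.0 CPM in non-cycling and at 98.8, 105 and 103 CPM in cycling cells, so that the 3 libraries were close in each class. In cells high for both lists and in those high for G2 and M alone, the variant sum was lower, at 1.26-fold and 1.33-fold above air. H3f3b was also lower there, at 1.29-fold and 1.13-fold, but H3f3a was at 1.405-fold and 1.86-fold. In cells of 8 or more S phase UMIs with 3 to 5 G2 and M UMIs, the variant sum was 1.68-fold above air. H3f3b was 1.76-fold and H2ax 1.75-fold (1.06 to 3.06) above air in those cells, so the ratios were not lower in every group. In cells high for both lists H2ax was at 154, 149.7 and 122 CPM, 0.792 of air (0.720 to 0.872) at 1.5 ppm, and H2az2 was at 0.923 of air (0.874 to 0.976). For these genes the side of 1 at 1.5 ppm thus changed with the grouping. Macroh2a1 was at 0.940 of air in non-cycling and 0.939 in cycling cells. H1f0 was 1.83-fold (1.59 to 2.12) above air at 1 ppm in non-cycling cells and 1.19-fold (0.946 to 1.49) in cycling cells, and in cycling cells at 1.5 ppm it was at 0.724 of air (0.609 to 0.864).

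Weighting each library's phase levels by the air library's phase shares gives the level at an equal mix of phases. The clustered sum then stood at 266 CPM in air, 279.9 at 1 ppm and 478 at 1.5 ppm, a ratio of 1.80 (1.76 to 1.83) in place of 2.61. With 16 finer bins of S and G2 and M UMIs, an alternative added after the data were seen, it was 1.60. The variant ratio went from 1.78 to 1.59, and with the finer bins to 1.56. Among single genes H1f5 went from 5.96 to 2.89, H2ac24 from 6.82 to 3.53, H1f4 from 5.15 to 3.20 and H2ax from 1.44 to 1.07, while H3f3b barely moved, from 1.60 to 1.58, and H2bc4 went up, from 1.26 to 1.51. Without all cells of 3 or more G2 and M UMIs, 8 clustered members were 2-fold or more higher at 1.5 ppm, in place of 30.

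**Figure D5:**
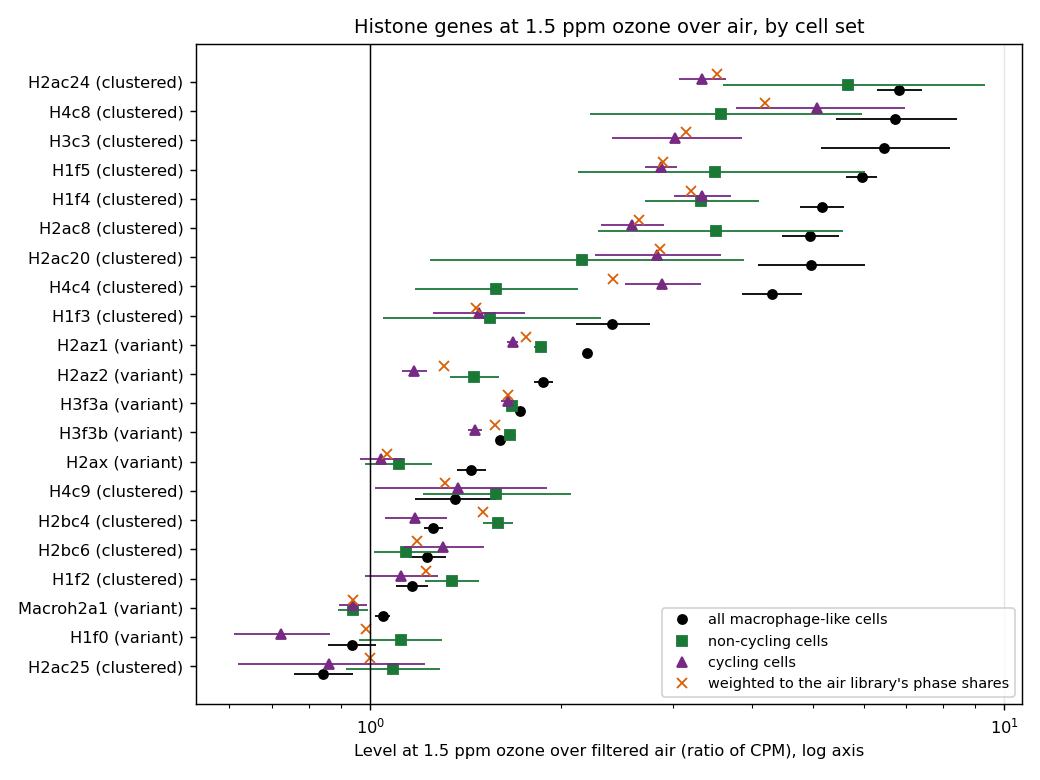
Level at 1.5 ppm ozone over filtered air for the 21 named members (log axis) in all, non-cycling and cycling alveolar-macrophage-like cells with 95% counting intervals, and, as crosses, after weighting to the air library's phase shares. For H2ac24, H1f5, H1f4 and H2ac8 the ratio in all cells exceeds those within phases, and for H3f3a and H3f3b all 4 values lie between 1.4 and 1.8; H3c3 has no value in non-cycling cells, where air had 0 UMIs.

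The listed genes that process, chaperone and place histones all stayed within 2-fold of air at 1.5 ppm, as did H2bc4, H1f2 and some other histone genes. Of 17 genes of histone transcription and pre-mRNA processing, 0 were 2-fold or more higher at 1.5 ppm (3.47% of all genes), and 3 were 1.5-fold or more higher (11.6% of all genes). The median log2 ratio was 0.26. The largest were the spliceosomal and U7 core proteins Snrpf (127 CPM in air, 197 at 1.5 ppm) and Snrpe (163 and 252), the zinc finger protein Zfp473 (1.07 and 1.67) and Lsm10, a protein of the U7 particle that cuts histone pre-mRNA (39.1 and 57.1). Slbp, the stem-loop binding protein, named here after its value was seen, was at 78.5 and 99.4 CPM, 1.27-fold (1.22 to 1.32), and within cycling cells the ratio was 1.02 (0.964 to 1.08). Of 23 chaperone and assembly genes, 0 were 2-fold higher (3.47% of all genes) and 2 were 1.5-fold higher (11.6% of all genes). With so few genes, the counts of both lists are near these shares and are not read as results. The 2 were Asf1b, a chaperone of H3 and H4 in dividing cells (19.2 and 35.6 CPM), and Anp32e, a chaperone of H2A.Z (68.1 and 103). Chaf1a, a subunit of the assembly factor CAF-1, and Npm1, nucleophosmin, followed at 1.49-fold and 1.48-fold, and the median was 0.31. Within cycling cells both medians were 0.03, and in non-cycling cells 0.058 for processing and -0.065 for chaperones, against -0.13 and -0.07 for all genes tested in those cells.

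Other cells of the lavage give the level that free RNA could bring. At 1.5 ppm H1f5 was at 4.25 CPM in 78 neutrophil-like cells (1 UMI), at 4.38 in the 249 cells of the unnamed cluster 12 (3 UMIs) and at 5.37 in 98 airway-epithelial-like cells (5 UMIs), against 3.77 in non-cycling and 439 in cycling macrophage-like cells. H1f4 was at 29.7, 19.0 and 24.7 CPM in those 3 groups and at 21.2 in non-cycling macrophages. H2ac24 was at 17.0, 20.4 and 12.9 CPM against 6.72. The values of these 3 genes in non-cycling macrophages are at, near or below those of the other cells and are not read as expression there. The remaining groups had more H1f5, with 13.4 CPM in 72 T-cell-like cells (5 UMIs), 15.1 in 53 migratory-dendritic-like cells (8 UMIs), 32.8 in the 240 cells of the unnamed cluster 10 (11 UMIs) and 44.8 in 102 interstitial-or-monocyte-derived-macrophage-like cells (45 UMIs). H2bc4, at 170 CPM in non-cycling macrophages, was at 310.2 in neutrophil-like, 160.4 in cluster 12, 222 in airway-epithelial-like and 24.2 in T-cell-like cells. Median UMIs per cell were 2302 in neutrophil-like cells, 969 in cluster 10, 2074 in cluster 12 and 4268 in airway-epithelial-like cells, against 11900 in non-cycling macrophages, and the share of free RNA in each was not tested.

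H1f10, a replication-independent linker histone, belonged to other cells. It had 0, 0 and 3 UMIs in macrophage-like cells of the 3 libraries. In migratory-dendritic-like cells it was at 23.9, 100.2 and 24.6 CPM, from 7, 18 and 13 UMIs in 27, 15 and 53 cells. In interstitial-or-monocyte-derived-macrophage-like cells it was at 22.8, 13.5 and 12.0 CPM.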

How the data were processed

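The deposited values are whole-number UMI counts for each gene in each barcode. Per the file headers they come from Cell Ranger 8.0.0, and the submitters' processing notes name the mouse build GRCm39 (mm39). How intronic and multiply mapped reads were handled is not stated in these sources. Priming on poly(A) tails may miss stem-loop histone messages, and near-identical histone genes may share reads. The members and lists were chosen with earlier results of these data known.

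Cells were kept at 500 UMIs, 300 genes and at most 10% mitochondrial UMIs, and clustered with scanpy 1.11.5 (2000 variable genes, 30 components, 15 neighbours, Leiden resolution 1). Clusters were named only from marker lists, with at least 3 markers. No doublet caller was run, and without the 5% of cells with most UMIs was an alternative. UMIs were summed over cells and divided by the cells' total UMIs, giving CPM. Intervals are exact Poisson for levels, exact conditional for ratios and Clopper-Pearson for shares, at 95%, and the equal-phase interval approximates the same counting error. Members with at least 1000 UMIs in macrophage-like cells were named. A gene was tested with 100 UMIs and called at 2-fold, with 1 UMI added to each sum. In the processing and chaperone lists, the 4 genes of largest ratio were named. The scripts were tested on simulated data. Alternatives were the cell filter, the CPM base, means per cell, thinning to 2500 UMIs, other phase limits, folds and UMI minimums.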

Additional observations from a re-analysis of the deposited data

Results flagged for a closer look

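Barcodes above 10% mitochondrial UMIs took no part in the comparisons and still held clustered histone RNA. The clustered sum in them was 213 CPM (189.5 to 239.5) in 454 barcodes at 1.5 ppm, against 143 CPM (135 to 151) in 1594 barcodes in air and 119.8 CPM (109.9 to 130.4) in 842 barcodes at 1 ppm. The 1.5 ppm value drew attention because it stands above the level of the control library in data left out of the report. Variants in the same barcodes were at 778 CPM in air, 944 at 1 ppm and 1148 at 1.5 ppm.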

How the results depend on the processing

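All values here are ratios of 1.5 ppm to air unless said otherwise. Over its alternatives the clustered sum stayed above air, from 1.47 to 3.27, and the variant sum from 1.61 to 1.94. Stricter cell limits (1000 UMIs, 500 genes, 5% mitochondrial) gave 2.49 for the clustered sum, 1.74 for variants (1.13 for 1 ppm over air), 2.30 in cycling cells and 1.73 at equal phase shares. Without a mitochondrial limit these were 2.76, 1.94 (1.17), 2.74 and 1.91, and 1.62 in non-cycling cells. With the mean of each cell's CPM they were 2.28, 1.72 (1.13), 2.74 and 1.84, and without the 5% of cells with most UMIs 2.67, 1.82 (1.12), 3.15 and 1.88. The clustered 1 ppm ratio of 1.03 went to 0.989 with cell means, 0.947 without the deepest cells, 0.991 at 2.5 to 4% mitochondrial UMIs and 0.965 without cells of 3 or more G2 and M UMIs, so its side of 1 depends on these settings. At 2.5 to 4% mitochondrial UMIs the sums were 2.22 and 1.62, with 16 clustered members 2-fold higher in place of 30. Without cells of 3 or more G2 and M UMIs they were 1.47 and 1.61 (1.15 for variants at 1 ppm), with 8 members. For both counts the minimum of 100 UMIs was applied again within the cells left, where fewer members can reach it. No share of all genes was taken for them, so they cannot be compared directly with the 30. All kept cells gave 2.54 and 1.77, and CPM without mitochondrial genes 1.75 for variants. A fold of 1.5 called 34 of 45 members (11.6% of all genes). A minimum of 300 UMIs left 16 of 24 and a minimum of 30 UMIs 37 of 56, and the share of all genes was not taken at these minimums. Many of these members pass the minimum only with the 1.5 ppm library, where they are high, so these counts support nothing. Thinning to 2500 UMIs gave 1.50 in non-cycling cells, 2.22 in cycling cells and 1.65 at equal phase shares. A phase limit of 2 UMIs gave 2.76 and 2.01 for the last pair, and of 5 UMIs 2.17 and 1.64. Phase by the G2 and M list alone gave 1.47 in non-cycling cells. The list medians (log2) were 0.23 for processing and 0.28 for chaperones in CPM without mitochondrial genes, and 0.058 and -0.065 in non-cycling cells, where the chaperone median changed sign. Chosen after seeing the data, 16 bins of S and G2 and M UMIs gave 1.60 at equal phase shares, leaving out H1f5, H2ac24 and H1f4 gave 1.80 and leaving out H2bc4 gave 3.27 for the clustered sum, and a minimum of 100 UMIs in air alone gave 7 of 14 members. Of 196 values of single members or of variants, 193 kept their direction and 10 moved by over 1.5 times. H1f0 turned from 0.935 to 1.02 without a mitochondrial limit, and without cells of 3 or more G2 and M UMIs H1f0 turned to 1.00 and Macroh2a1 from 1.05 to 0.952. The 10 were H2ac24 (4.53) and H3c3 (3.73) at 2.5 to 4% mitochondrial UMIs, and without cells of 3 or more G2 and M UMIs H1f5 (3.22), H1f4 (3.01), H2ac8 (2.83), H4c4 (1.85), H1f3 (1.47), H4c8 (3.37), H2ac20 (3.03) and H3c3 (10.9). Cycling cells held 98.75% of the H3c3 UMIs of air, so the 10.9 rests on very few UMIs in air. Apart from the settings that leave out cells or genes, the cause of the moves was not tested. No paired analysis was possible because each group is 1 library and the labels give no shared replicate numbers.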
